A study of Arabidopsis thaliana with 38 samples.

Results

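The comparison described here is that of HSP90.1-TDNA, an *Arabidopsis thaliana* line with a T-DNA insertion in *HSP90.1*, with its wild-type control Col-0. It comprised 6 of the 35 biological samples and 6 of the 38 ATH-1 arrays of the series, chosen by their titles, Salk_hsp90.1 (3 samples) and Col-0_CS60000 (3 samples). HSP90.1-TDNA is a SALK line in the Col-0 background, made homozygous for the insert by PCR screening, and it stands for a single insertion allele. Col-0 carried no insert. Both lines were grown in the same experiment on GM medium under long days with no treatment, and each sample was the pooled aerial tissue of several seedlings aged 14 days. HSP90.2-TDNA and HSP90.3-TDNA, homozygous insertion lines of *HSP90.2* and *HSP90.3*, were grown with them, also with 3 samples each, and serve here to show where HSP90.1-TDNA differed from a line with another isoform disrupted. The remaining 9 lines of the series (HSP90-RNAi lines, their controls and the point mutant hsp90.2-3) entered only the estimate of the spread and the ranges given below. The HSP90-RNAi lines and their controls were grown in other experiments, and the experiment of hsp90.2-3 is not stated. Ranges over all lines therefore mix differences between lines with differences between experiments.

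HSP90 is an abundant molecular chaperone of the cytosol. It helps many signalling proteins, among them kinases and receptors, to reach an active shape, and it also holds heat-shock transcription factors inactive. *HSP90.1* is the cytosolic isoform whose transcript is strongly induced by heat, whereas *HSP90.2* and *HSP90.3* are expressed constitutively. The question behind the comparison is which transcripts differ in unstressed seedlings when the heat-induced isoform alone is disrupted.

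The values are MAS5 signals, a linear measure of the brightness of a probe set (the group of short probes for 1 transcript). The medians of the 6 arrays were 192 to 202, and their correlations with the median profile of the series across genes were 0.9796 to 0.985. Across the tested probe sets the HSP90.1-TDNA samples correlated with each other at 0.968 to 0.975, the Col-0 samples with each other at 0.972 to 0.979, and samples of one line with samples of the other at 0.963 to 0.979, so that the lines did not separate by this measure. Changes are differences of mean log2(signal + 16), HSP90.1-TDNA minus Col-0, from a limma model of all lines, and they understate the change of dim probe sets. The test covered 16651 probe sets, and one was called when its Benjamini-Hochberg adjusted p among all of these was under 0.05. The table of probe sets used here names none for *HSP90.1* or another cytosolic HSP90 gene, so no probe set is reported here as that of the disrupted gene. The paper reports that on these arrays *HSP90.1* and *HSP90.2* transcripts were almost undetectable in their own insertion lines. It also reports lower combined transcripts of *HSP90.3* and *HSP90.4* in HSP90.3-TDNA. Among the unnamed probe sets, 248332_at was lower in HSP90.1-TDNA, 248045_at in HSP90.2-TDNA and 248043_s_at in HSP90.3-TDNA. Their log2 changes against Col-0 were -1.52, -7.21 and -2.47. These falls run parallel to the paper's report but name no probe set. Which transcripts the unnamed probe sets below measure was not settled, and whether any of them is that of an HSP90 gene was not tested. A lower signal cannot be told apart from fewer cells of the type that makes the transcript.

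In HSP90.1-TDNA 4 probe sets were called, which is 0.0240% of those tested. One rose, that of *AT2G23950*, a receptor-like kinase with leucine-rich repeats, and 3 fell, those of *AT5G60150*, of *AT3G57940*, a relative of the RNA cytidine acetyltransferases, and 248332_at, which has no gene name in the tables used. The size of this set depended on single samples. It was 1 without HSP90.1-TDNA replicate 2, HSP90.1-TDNA replicate 3, Col-0 replicate 1 or Col-0 replicate 2, 3 without HSP90.1-TDNA replicate 1, and 11 without Col-0 replicate 3. These counts leave out 1 outlying array of RNAi-A3, a line that takes no part in the comparison but adds to the spread. With that array kept, limma called 0, with 825 of 17248 at an unadjusted p under 0.05.

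**Figure D1:**
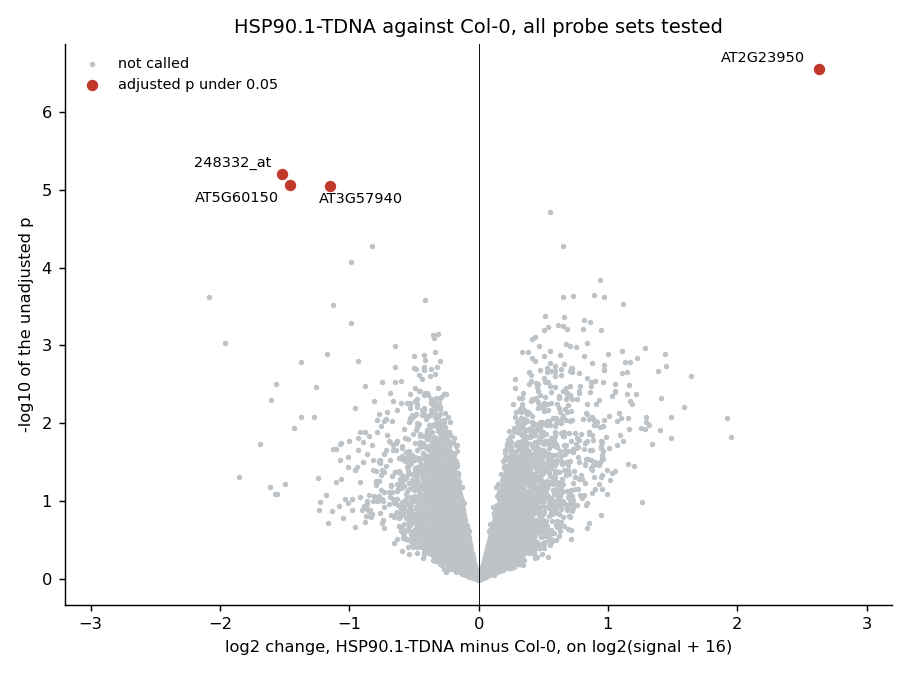
Each point is 1 of the 16651 probe sets tested, with the log2 change of HSP90.1-TDNA against Col-0 on the horizontal axis and the -log10 of limma's unadjusted p on the vertical axis. The 4 called probe sets are red, with *AT2G23950* at a log2 change of 2.63 to the right and the 3 others to the left.

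*AT2G23950* (266560_at) had signals of 433, 343 and 367 in the 3 HSP90.1-TDNA samples and of 66.9, 24.7 and 60.7 in the 3 Col-0 samples. The lines lay far apart, with the lowest HSP90.1-TDNA sample well above the highest Col-0 sample. Its mean signal was 381 ± 46.4 (SD, n = 3) in HSP90.1-TDNA, and the log2 change was 2.63 (standard error 0.38, limma adjusted p = 0.00479). Over the 32 other samples of the series its signal ran from 9.48 to 202 with a median of 59.7, so that none reached an HSP90.1-TDNA sample. The means of the 12 other lines spanned 18.23 to 165. Over the 17 alternatives tried the log2 change was 1.97 to 2.91, and the gene was called in 12 of them. The call was lost without Col-0 replicate 2, at an adjusted p of 0.0663, in a range over all alternatives of 7.85e-05 to 0.985. It was also lost with the 12 samples of the third experiment alone (limma adjusted p = 0.132) and with the samples of the 2 lines alone (0.154). The other losses were with the outlying array kept (0.0820) and by the methods' t-test (0.985). The call thus depended on which samples gave the spread.

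*AT3G57940* (251611_at) had signals of 80.1, 68.5 and 69.4 in HSP90.1-TDNA and of 210, 173 and 161 in Col-0. The 3 samples of HSP90.1-TDNA lay within a narrow band below every Col-0 sample. The log2 change was -1.15 (standard error 0.21, limma adjusted p = 0.0378). The 32 other samples had signals of 108 to 268 with a median of 177, and the means of the other 12 lines lay between 156 and 222, so that HSP90.1-TDNA was the single line below this band. Of the 17 alternatives, 7 kept the call. Of those that left out 1 sample, the call was kept without Col-0 replicate 3 (limma adjusted p = 0.0428). It was lost in the other 5, with adjusted p from 0.0653 to 0.295.

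*AT5G60150* (247667_at) had signals of 64.9, 40.2 and 30.6 in HSP90.1-TDNA and of 142, 126 and 179 in Col-0. The lines did not overlap, although the HSP90.1-TDNA samples differed more from one another than those of *AT3G57940*. The log2 change was -1.46 (standard error 0.26, limma adjusted p = 0.0378). In the 32 other samples the signal was 64.4 to 179 with a median of 126, and 1 of them fell below the brightest HSP90.1-TDNA sample. When 1 sample was left out, the call was kept without HSP90.1-TDNA replicate 1 (limma adjusted p = 0.0372). It was lost in the other 5, with adjusted p from 0.0782 to 0.248.

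The unnamed probe set 248332_at had signals of 27.4, 45.0 and 48.4 in HSP90.1-TDNA and of 117, 100 and 244 in Col-0. Col-0 replicate 3 was much brighter than the other Col-0 samples, and all 3 were above HSP90.1-TDNA. The log2 change was -1.52 (standard error 0.27, limma adjusted p = 0.0378). The other 32 samples ranged from 83.3 to 612 with a median of 250, all of them brighter than each HSP90.1-TDNA sample. When 1 sample was left out, the call was kept without Col-0 replicate 2 (limma adjusted p = 0.0451). It was lost in the other 5, with adjusted p from 0.0803 to 0.123.

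**Figure D2:**
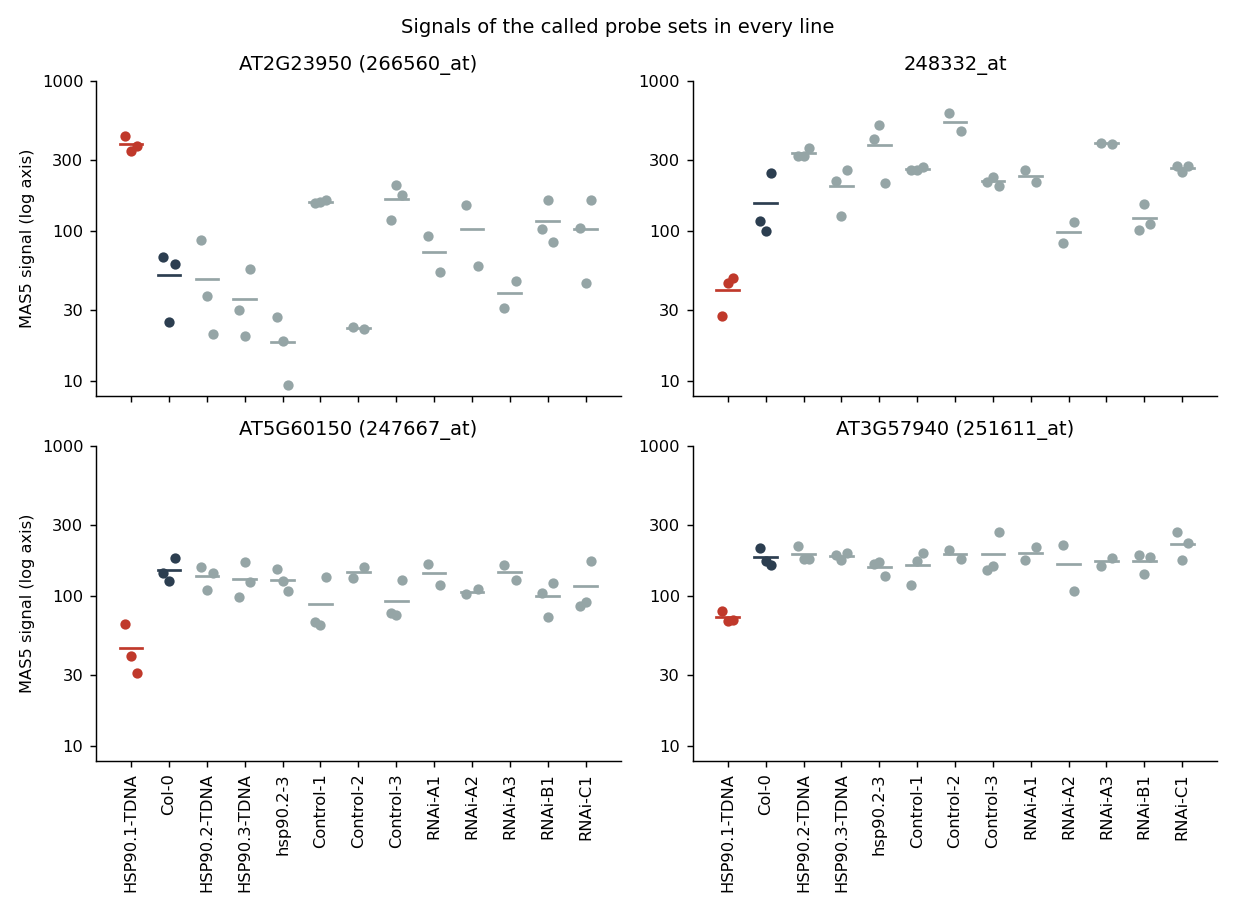
MAS5 signals (log axis) of the 4 called probe sets in every sample, by line, with horizontal bars at the line means, HSP90.1-TDNA in red, Col-0 in dark blue and the other lines in grey. HSP90.1-TDNA lies above all lines for *AT2G23950* (343 to 433) and below all lines for *AT3G57940* (68.5 to 80.1) and 248332_at (27.4 to 48.4), and 1 sample of another line lies below the highest HSP90.1-TDNA sample for *AT5G60150*.

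The next probe sets in order of p were not called. *VPS2.1*, a subunit of the ESCRT-III membrane remodelling complex, had mean signals that differed by a log2 change of 0.55 (standard error 0.11, limma adjusted p = 0.0655). It was followed by *AT5G24870* (0.65, adjusted p = 0.128), *AT5G52220* (-0.82, adjusted p = 0.128) and *SAL2* (-0.99, adjusted p = 0.175), and the next adjusted p was 0.268. *VPS2.1* passed the threshold under the filter at the 50th percentile and without HSP90.1-TDNA replicate 1 or Col-0 replicate 3. *AT5G52220* passed it with the 12 samples of the third experiment alone, at an adjusted p of 0.0310, in a range over its alternatives of 0.0183 to 0.985.

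At an unadjusted p under 0.05, 672 probe sets were higher (4.04% of those tested) and 570 lower (3.42%). The Methods of the study take a gene as changed when it differs by 1.5-fold or more and its p before adjustment is under 0.05. By this rule, with limma's p, 228 were higher (1.37%) and 92 lower (0.553%). With the p of the methods' t-test in its place 29 were higher and 25 lower, 54 in all, and with limma's p and no filter 288 were higher and 240 lower. The total of 320 by limma became 525 without HSP90.1-TDNA replicate 1, 194 without Col-0 replicate 1 and 489 without Col-0 replicate 3. Its balance of 71.2% higher became 154 higher against 156 lower without HSP90.1-TDNA replicate 2. In 724 probe sets (4.35%) all 3 HSP90.1-TDNA samples lay above all 3 Col-0 samples, and in 908 (5.45%) they lay below. The median log2 change of all probe sets tested was -0.01, and 90% of them fell between -0.34 and 0.38.

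Among named genes with an unadjusted p under 0.05, 184 had all HSP90.1-TDNA samples above Col-0. The 15 of these with the greatest log2 change spanned 0.95 to 2.63, and apart from *AT2G23950* none was called, with adjusted p up to 0.587. They included 3 genes for proteins with a TIR domain, the signalling domain of one class of plant immune receptors. *AT1G72920* had signals of 649, 930 and 681 against 122, 459 and 507 in Col-0, a log2 change of 1.22 (standard error 0.34, limma adjusted p = 0.397). The gap between the lines was modest beside the distance between Col-0 replicate 1 and the other Col-0 samples. *AT1G72940* had signals of 520, 652 and 700 against 130, 352 and 463, and *AT1G72900* had 742, 1247 and 1279 against 389, 557 and 732. Again the first Col-0 sample was the dimmest of the 6 for both genes. The 3 genes lie close together on chromosome 1, and another gene of the same stretch, *AT1G72890*, looked up after the values were seen, had a log2 change of 0.21 (adjusted p = 0.900).

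*AT2G04050*, a MATE family efflux carrier, had signals of 404, 133 and 230 against 47.3, 124 and 80.6 in Col-0, a log2 change of 1.39 (standard error 0.41, limma adjusted p = 0.397). *GSTU25*, a glutathione transferase of the tau class, had signals of 119, 281 and 337 against 101, 93.4 and 81.1, a log2 change of 1.17 (standard error 0.33, limma adjusted p = 0.397). For each of them 1 HSP90.1-TDNA sample was close to the brightest Col-0 sample, replicate 2 for *AT2G04050* and replicate 1 for *GSTU25*. *AT3G55840*, a homologue of the sugar beet nematode resistance gene Hs1pro-1, had signals of 88.1, 121 and 117 against 19.3, 76.4 and 63.4. *AT5G13380*, of the GH3 family of acyl acid amido synthetases, had 79.6, 66.9 and 79.1 against 26.2, 20.3 and 51.7. *AT3G04010*, a family 17 glycosyl hydrolase, had 104, 175 and 236 against 42.8, 79.0 and 99.4. In these 3 genes the brightest Col-0 sample came close to the dimmest HSP90.1-TDNA sample. The other members were *AT2G25640* (1.40), *AT4G28703* (1.15), *AT2G41730* (1.11), *AT3G01430* (1.01), *AR781* (1.0) and *AT2G19180* (0.97), each given with its log2 change. The probe set of *AT2G41730* is one whose probes can bind other transcripts as well. Col-0 replicate 1 was the dimmest Col-0 sample in 10 of the 15 genes. Among the 14 that were not called, Col-0 had the lowest mean of all 13 lines except for *AT1G72920*, *AT3G01430* and *AR781*. The mean of HSP90.1-TDNA lay within the range of the other lines except for *AT1G72920* and *AR781*, where it was the highest. For *AT2G19180*, as an example, the means were 87.2 in Col-0, 186 in HSP90.1-TDNA and up to 257.5 in other lines. Of the other lines, only the insertion lines are known to share the experiment of Col-0, so line and experiment cannot be told apart in these rankings. Why Col-0 was low was not tested. Over the 14 genes that were not called, the same Col-0 samples gave log2 changes of 0.51 to 1.04 in HSP90.2-TDNA and of 0.27 to 1.85 in HSP90.3-TDNA.

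In 180 named genes with an unadjusted p under 0.05 all HSP90.1-TDNA samples lay below Col-0. The 15 largest of these log2 changes ran from -2.08 to -0.75, and besides *AT5G60150* and *AT3G57940* none was called. *HEMA3*, a form of glutamyl-tRNA reductase, the enzyme of the first committed step towards chlorophyll and haem, had the greatest. Its signals were 8.32, 10.1 and 12.9 in HSP90.1-TDNA and 106, 102 and 81.5 in Col-0. All 3 HSP90.1-TDNA samples were dim, and no Col-0 sample came near them. The log2 change was -2.08 (standard error 0.49, limma adjusted p = 0.286), and over its alternatives the adjusted p ran from 0.0136, with the samples of the 2 lines alone, to 0.9999. The gene was also variable in other lines, since HSP90.2-TDNA had signals of 72.5, 12.96 and 14.6, and 8 of the 32 other samples were below the brightest HSP90.1-TDNA sample. Col-0 alone admitted *HEMA3* to the test. The Col-0 mean was 96.4, above the required signal of 91.2, and the next highest line mean was 65.4, in HSP90.3-TDNA. A high control was thus a condition for testing this gene. The same held for *AT1G44510*, another of the 15, with means of 102 in Col-0 and 76.8 in RNAi-A1, the next highest line.

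*AT2G43620* and *AT2G43590*, both of the chitinase family, were among the same 15. *AT2G43620* had signals of 35.1, 84.9 and 150 in HSP90.1-TDNA and of 586, 175 and 423 in Col-0, a log2 change of -1.96 (standard error 0.52, limma adjusted p = 0.397). *AT2G43590* had 738, 1020 and 766 against 1931, 1561 and 1080, a log2 change of -0.82 (standard error 0.36, limma adjusted p = 0.613). In both, the dimmest Col-0 sample was close to the brightest HSP90.1-TDNA sample. Of 2 further genes of this stretch of chromosome 2, looked up after the values were seen, *CHI* had a log2 change of -1.01 (adjusted p = 0.763) and *AT2G43610* one of -0.07 (adjusted p = 0.9796).

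*SAL2*, a relative of the phosphatase SAL1 that clears phosphonucleotides, had signals of 36.4, 19.1 and 35.8 in HSP90.1-TDNA and of 62.4, 93.9 and 70.0 in Col-0. *AT5G52220* had 39.4, 49.4 and 43.6 against 91.8, 86.1 and 92.1. Both sets of samples were clearly apart, but all were dim, below or near the signal of 91.2 that at least 1 line mean had to exceed for a test. *AT5G52220* lies on the same chromosome as *HSP90.1*, with 48 genes between them in the gene table. *AT5G55450*, of the lipid transfer protein family, had 589, 410 and 357 against 868, 701 and 707, and *AT1G65240*, of the aspartyl protease family, had 35.2, 48.5 and 21.1 against 75.0, 58.2 and 111. *AT5G17370* had 114, 121 and 20.8 against 142, 159 and 121, where a single HSP90.1-TDNA sample, replicate 3, carried most of the difference. The other members were *AT2G04500* (-1.38), *AT5G20790* (-1.10), *AT1G44510* (-1.07), *AT1G65500* (-1.0) and *AT2G02440* (-0.75), each with its log2 change. Over the 13 genes that were not called, the same Col-0 samples gave log2 changes of -1.55 to 0.01 in HSP90.2-TDNA and of -1.08 to 0.32 in HSP90.3-TDNA.

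**Figure D3:**
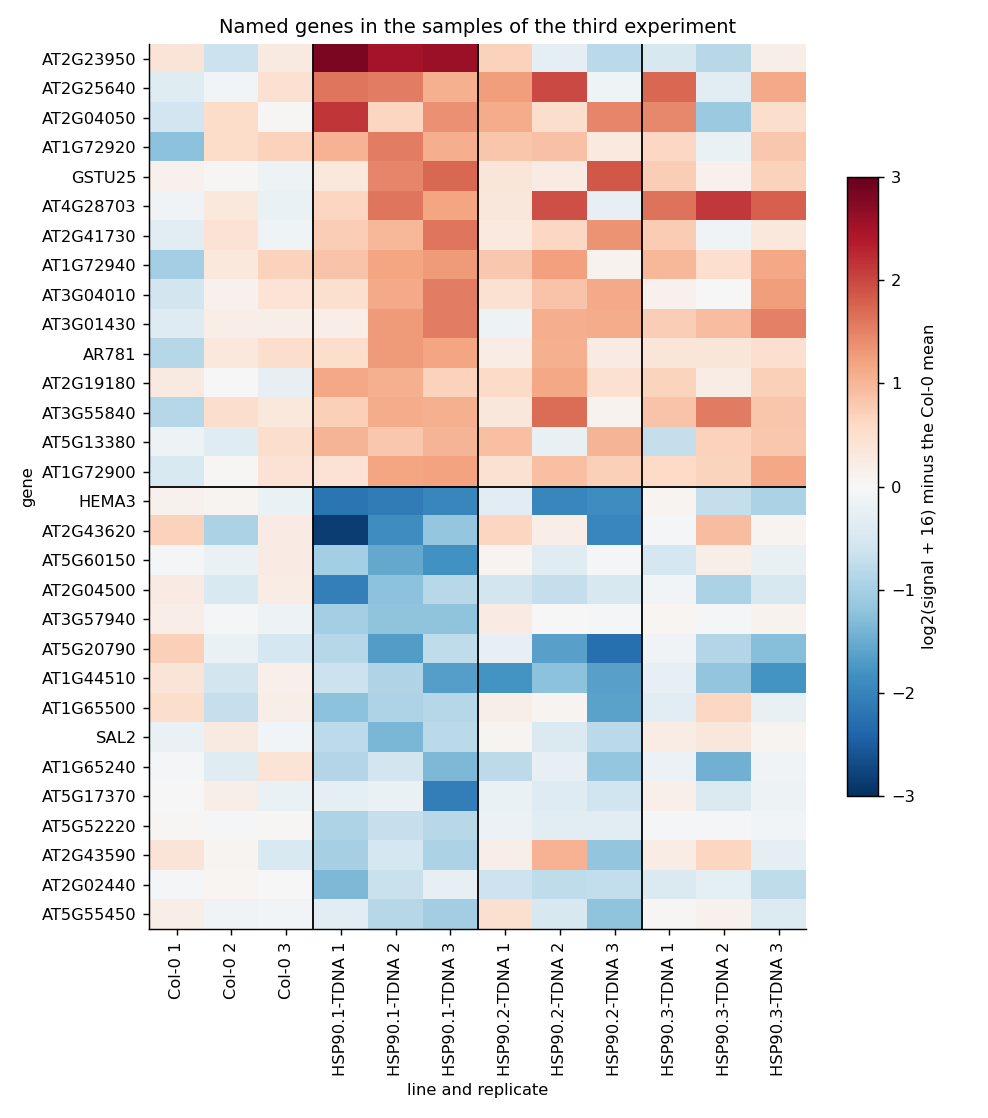
Rows are the 15 named genes with the greatest increase and the 15 with the greatest decrease, columns the 12 samples of the third experiment by line and replicate, and colour the log2(signal + 16) minus the mean of the 3 Col-0 samples (red higher, blue lower). *AT2G23950*, *AT3G57940* and *AT5G60150* stand apart in HSP90.1-TDNA, whereas most rows of increases are also red in several HSP90.2-TDNA and HSP90.3-TDNA samples, with Col-0 replicate 1 the palest or bluest control in many.

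Among probe sets with no gene name, the greatest differences of this kind were those of 267357_at and 263231_at, higher, and of 248332_at and 266364_at, lower. The signals of 267357_at were 1129, 2152 and 1679 against 188, 906 and 1081, a log2 change of 1.45 (standard error 0.42, limma adjusted p = 0.397). Those of 263231_at were 906, 896 and 1452 against 283, 437 and 438, a log2 change of 1.44 (standard error 0.40, limma adjusted p = 0.397). Those of 266364_at were 62.3, 19.3 and 84.4 against 173, 127 and 130, a log2 change of -1.28 (standard error 0.45, limma adjusted p = 0.513). Apart from 248332_at, described above, none of these passed the test.

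HSP90.1-TDNA was then compared with the other insertion lines directly. These differences do not use the Col-0 means, although the Col-0 samples still entered the filter and the spread behind the calls. Against HSP90.2-TDNA 4 probe sets were called (0.0240%), and against HSP90.3-TDNA 13 (0.0781%). *AT2G23950*, *AT3G57940* and 248332_at were called in both tests. *AT2G23950* had signals of 87.0, 36.9 and 20.6 in HSP90.2-TDNA and of 29.98, 19.97 and 55.9 in HSP90.3-TDNA, and HSP90.1-TDNA was higher by a log2 difference of 2.76 (limma adjusted p = 7.19e-04) and 3.01 (limma adjusted p = 2.32e-04). *AT3G57940* had signals of 216, 177 and 176 in HSP90.2-TDNA and of 187, 175 and 194 in HSP90.3-TDNA, with log2 differences of -1.21 (limma adjusted p = 0.0172) and -1.19 (limma adjusted p = 0.0129). The probe set 248332_at had signals of 315, 317 and 357 in HSP90.2-TDNA and of 216, 126 and 254 in HSP90.3-TDNA, with log2 differences of -2.64 (limma adjusted p = 3.25e-06) and -1.90 (limma adjusted p = 9.64e-04). No HSP90.1-TDNA sample overlapped with either line in any of the 3. *AT5G60150* was not called in either, with signals of 157, 110 and 142 in HSP90.2-TDNA and of 98.2, 169 and 125 in HSP90.3-TDNA. Apart from *AT2G23950*, none of the 15 largest increases was called against either line, where their log2 differences were 0.24 to 0.56 from HSP90.2-TDNA and -0.70 to 1.11 from HSP90.3-TDNA.

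The remaining call against HSP90.2-TDNA was the unnamed 248045_at, with signals of 3987, 3051 and 3815 in HSP90.1-TDNA, 4889, 3281 and 3524 in Col-0 and 26.3, 2.99 and 5.96 in HSP90.2-TDNA. Against HSP90.3-TDNA the greatest was that of the unnamed 248043_s_at, with 6433, 3974 and 5463 in HSP90.1-TDNA, 5943, 4761 and 5735 in Col-0 and 1061, 889 and 974 in HSP90.3-TDNA. In both cases HSP90.1-TDNA overlapped with Col-0, and the other line was far below. *AT1G47400*, a short peptide of the IRON MAN family, had signals of 1134, 1049 and 773 against 373, 224 and 191 in HSP90.3-TDNA, a log2 difference of 1.88 (standard error 0.27, limma adjusted p = 9.64e-04), with 1012, 1153 and 715 in Col-0. *BHLH101*, a transcription factor that promotes iron uptake, had 174, 232 and 235 against 79.0, 65.4 and 10.3, a log2 difference of 1.95 (standard error 0.38, limma adjusted p = 0.0338), with 53.4, 224 and 166 in Col-0. Neither differed from Col-0 in HSP90.1-TDNA beyond the spread (limma adjusted p = 0.987 and 0.757). *SAL2* was lower in HSP90.1-TDNA than in HSP90.3-TDNA, where its signals were 90.17, 97.9 and 79.3, by a log2 difference of -1.20 (standard error 0.21, limma adjusted p = 0.0129). Of the other unnamed calls, 254564_at was higher by 1.06 and 264901_at lower, at a log2 difference of -0.88. The list of calls was completed by 4 smaller differences outside the rule for named genes, all higher in HSP90.1-TDNA, at 248270_at (1.025), 264146_at (0.8235), 251157_at (0.4979) and *YLMG1-2* (0.4935).

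Of 19 gene lists drawn up for this tissue and for HSP90, 15 had at least 1 tested gene with a named probe set, 60 genes in all. None of the 60 was called by limma (lowest adjusted p = 0.513), beside 0.0240% of all probe sets. At an unadjusted p under 0.05, 5 were higher and 3 lower, beside 4.04% and 3.42% of all probe sets in these directions. In both directions together this is 13.3% of the 60, beside 7.46% of all probe sets.

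The heat-induced chaperones and heat factors were the fullest list, with 13 genes tested of 43. Of these 0 were called, 1 was higher and 0 lower at an unadjusted p under 0.05, and the median log2 change was -0.06 beside -0.01 for all probe sets. The one was *AT5G51440*, a small heat-shock protein of mitochondria, with signals of 168, 111 and 240 in HSP90.1-TDNA and of 56.7, 124 and 91.0 in Col-0, which overlapped (log2 change 0.82, standard error 0.36, limma adjusted p = 0.625). *AT4G21870*, a small heat-shock protein, had 212, 323 and 280 against 664, 282 and 325, and *AT1G71000*, of the DnaJ family, had 73.7, 19.6 and 163 against 59.6, 26.9 and 43.2. Both overlapped with Col-0. *Hsp70-2* and *AT3G09440*, cytosolic HSP70 chaperones, had log2 changes of -0.19 and -0.06, and *HSA32*, which prolongs acquired heat tolerance, one of -0.19. Of the 13 log2 changes 6 were above 0 and 7 below. The sign of the median turned without HSP90.1-TDNA replicate 1 (0.16), HSP90.1-TDNA replicate 2 (0.12), Col-0 replicate 1 (0.0475) or Col-0 replicate 3 (0.0115), and the median was -0.23 without HSP90.1-TDNA replicate 3, -0.20 without Col-0 replicate 2 and -0.12 under the filter at the 50th percentile.

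The co-chaperones, which load clients on HSP90 or tune its ATPase cycle, had 7 genes tested of 15. Of these 0 were called and 0 passed an unadjusted p of 0.05, and the median log2 change was -0.07. *SGT1A*, which links HSP90 to immune receptors, had signals of 491, 580 and 788 against 388, 498 and 563, a log2 change of 0.34 (limma adjusted p = 0.676). *AT4G02450*, a p23 co-chaperone, had 297, 261 and 242 against 461, 414 and 215, a log2 change of -0.36 (limma adjusted p = 0.758). *Hop3*, an adaptor between HSP70 and HSP90, had 7.66, 55.3 and 85.2 against 44.4, 57.3 and 50.9. The lines overlapped in all 3. *Hop1* and *Hop2* had log2 changes of -0.08 and -0.07, and *AT3G12050*, an activator of the HSP90 ATPase, one of 0.09. The median of this list turned above 0 without HSP90.1-TDNA replicate 1 (0.10), HSP90.1-TDNA replicate 3 (0.00565) or Col-0 replicate 2 (0.0046) and under the filter at the 50th percentile (0.0133), and it was -0.13 without Col-0 replicate 3.

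The 3 tested genes of rapid wound and touch responses, of 23 listed, had the highest median, 0.65. *STZ*, a zinc-finger repressor induced within minutes by many stresses, had signals of 1517, 3819 and 3286 against 537, 1718 and 2017, a log2 change of 1.10 (standard error 0.39, limma adjusted p = 0.513). Replicate 1 was the dimmest sample in both lines, and the lines overlapped. *WRKY53* (0.65) and *WRKY6* (0.53), transcription factors of senescence and defence, overlapped as well. The median was 0.32 without HSP90.1-TDNA replicate 2, 0.42 without Col-0 replicate 2 and 1.12 without HSP90.1-TDNA replicate 1. No member of this list was called under any alternative tried.

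Of the auxin and cell wall genes 7 of 11 were tested, with 0 called, 2 higher and 1 lower at an unadjusted p under 0.05, and a median of 0.18. *EXPA8*, an expansin that loosens the cell wall, had signals of 2691, 2215 and 2123 against 1021, 2306 and 1575, a log2 change of 0.58 (standard error 0.23, limma adjusted p = 0.566). *EXLA2*, expansin-like, had 116, 82.4 and 102 against 50.9, 109 and 16.8, a log2 change of 0.83 (standard error 0.36, limma adjusted p = 0.613). In each of them 1 Col-0 sample, replicate 2, reached the level of HSP90.1-TDNA. *WES1*, which conjugates auxin to amino acids, had a log2 change of 0.46, and *XTH16*, a xyloglucan hydrolase, one of -0.33 (adjusted p = 0.582). The median was 0.075 without HSP90.1-TDNA replicate 2, 0.35 without Col-0 replicate 2, 0.305 without Col-0 replicate 3 and -0.0736 under the filter at the 50th percentile.

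The abscisic acid and water deprivation list had 7 of 31 genes tested, 0 called and a median of 0.27. The 1 gene at an unadjusted p under 0.05 was *COR47*, a dehydrin, with a log2 change of 0.35 (standard error 0.14, limma adjusted p = 0.606). *PUB19*, a ubiquitin ligase that dampens abscisic acid signals, had 223, 583 and 600 against 215, 282 and 391, and *COR15B*, a chloroplast protein of cold acclimation, had 6575, 3657 and 6355 against 3635, 2753 and 6087. Both overlapped with Col-0. *LEA4-5*, a late embryogenesis abundant protein, had 9.69, 60.9 and 63.0 against 24.4, 100 and 82.8. The median fell to -0.0408 without HSP90.1-TDNA replicate 3, to 0.15 without Col-0 replicate 1 and to 0.0916 without Col-0 replicate 2, and it was 0.50 without Col-0 replicate 3.

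In the jasmonic acid lists 2 of 14 genes of biosynthesis and 3 of 16 of the response were tested, and no unadjusted p was under 0.05. The defensins *PDF1.2* (495, 3325 and 384 against 1134, 615 and 649) and *PDF1.2b* (1003, 6472 and 960 against 4736, 2139 and 1793) were brightest in HSP90.1-TDNA replicate 2, and the spread between replicates was greater than any difference between the lines. The probes of the *PDF1.2b* probe set can bind other transcripts as well, so the 2 defensins may not be separate readings. *THI2.1*, a thionin, had a log2 change of 0.36, and *OPCL1* and *AIM1*, enzymes of jasmonic acid synthesis, 0.22 and 0.04. In the salicylic acid and defence list *SAG101*, a partner of the immune regulator EDS1, had 71.6, 75.9 and 63.6 against 115, 93.3 and 87.3, all below Col-0 (log2 change -0.40, standard error 0.18, limma adjusted p = 0.623), and *GRX480*, a glutaredoxin, overlapped with Col-0 (0.42). In the flowering time list *AGL24*, a MADS-box promoter of flowering, had 146, 107 and 143 against 161, 180 and 168 (log2 change -0.34, standard error 0.13, limma adjusted p = 0.566), and *FD* (-0.52) and *AGL19* (0.42) overlapped with Col-0. *SAG101* and *AGL24* did not overlap with Col-0. Of the 60 list genes tested, 1 each of the heat-induced, salicylic acid, flavonoid, flowering time and auxin lists lay wholly below Col-0. Among all probe sets 5.45% did so. Wholly above Col-0 lay 1 gene, of the heat-induced list, beside 4.35% of all probe sets.

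The remaining lists had no gene at an unadjusted p under 0.05. The medians of the flavonoid and endoplasmic reticulum lists lay so near 0 that leaving out single samples turned their sign (-0.22 to 0.11 for flavonoids, -0.0818 to 0.0734 for the endoplasmic reticulum). In flavonoid and anthocyanin synthesis (5 of 17 tested, median 0.04) *UF3GT*, a glycosyltransferase, had 60.2, 74.6 and 69.1 against 151, 103 and 77.9 (log2 change -0.56, adjusted p = 0.718), and *DFR*, dihydroflavonol reductase, had a log2 change of -0.17. In the endoplasmic reticulum list (4 of 12, median -0.02) *BZIP60*, a transcription factor of the unfolded protein response, had 871, 882 and 1245 against 719, 614 and 925 (log2 change 0.40, adjusted p = 0.703), *CRT1b*, a calreticulin, -0.21 and *DER1* -0.04. In the iron list (2 of 11) *BHLH101* had a log2 change of 0.65 and *PYE*, a repressor of iron storage genes, 0.12. The median of this list was 0.38, and it ran from 0.0601 to 0.62 with single samples left out. Of the clock genes only *GI* was tested (1 of 17), with 2211, 1763 and 2116 against 1885, 1486 and 2313 (log2 change 0.12). No tested gene of the HSP90 family, of HSP90-dependent receptors, of phosphate starvation or of flower markers had a named probe set.

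**Figure D4:**
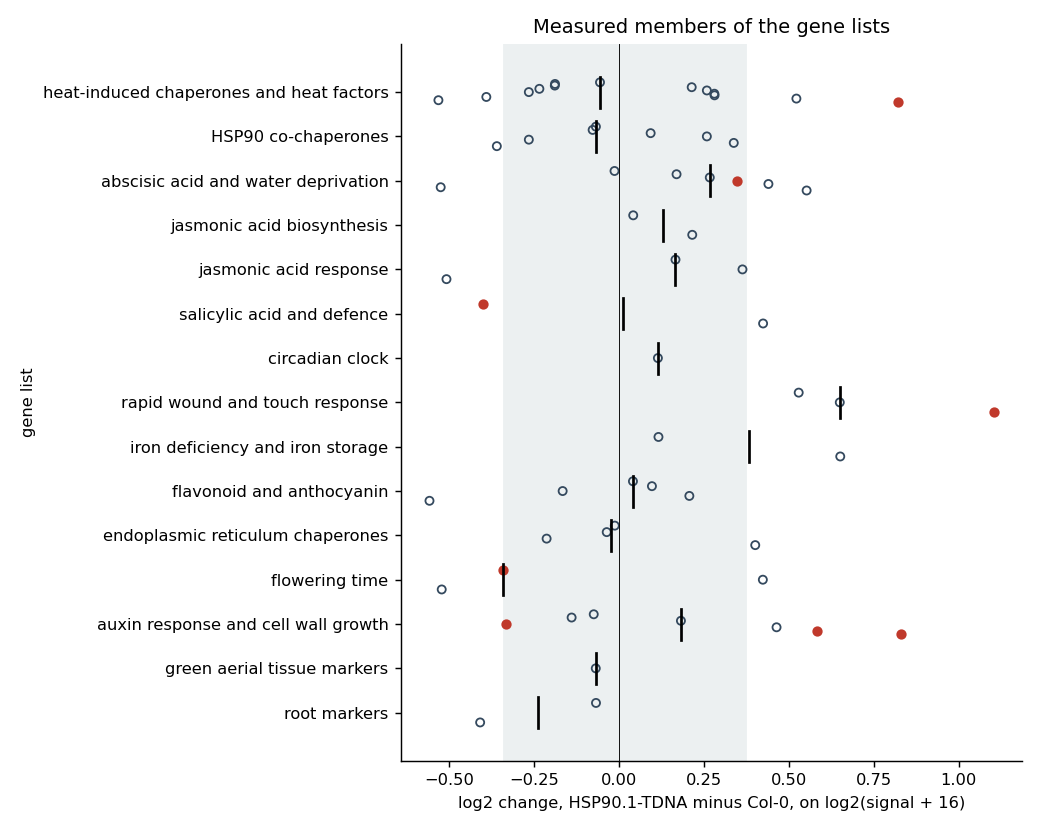
Each point is a tested gene with a named probe set, by list, at its log2 change of HSP90.1-TDNA against Col-0, filled red at an unadjusted p under 0.05 and open otherwise, with a black bar at the list's median and a grey band for the central 90% of all probe sets (-0.34 to 0.38). *STZ*, at 1.10, lies farthest from 0, and the heat-induced genes spread on both sides of it.

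Markers of the labelled aerial tissue and of roots were compared between the lines. Signals of different probe sets cannot be set against each other, so their levels give no measure of the make-up of the tissue. *RCA*, Rubisco activase of green tissue, had signals of 19777, 22966 and 19771 in HSP90.1-TDNA and of 20920, 24497 and 20174 in Col-0, which overlapped. The root hair expansins *EXPA7* (12.98, 62.5 and 63.0 against 90.8, 36.7 and 58.6) and *EXPA18* (136, 153 and 86.1 against 136, 143 and 109) also overlapped between the lines, with log2 changes of -0.41 and -0.07 (limma adjusted p = 0.909 and 0.981). These were the 2 of 14 root markers tested, and *RCA* was the 1 of 8 markers of green tissue. The sign of the change of *RCA* (-0.07) turned under quantile normalization.

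Around *HSP90.1* on chromosome 5, the 5 genes on each side in the gene table were looked up, and 2 of the 10 had a named probe set that was tested. *AT5G52650*, the direct neighbour, which encodes a ribosomal protein of the S10 family, had signals of 7972, 7849 and 8397 in HSP90.1-TDNA and of 10463, 8587 and 8997 in Col-0. The lines did not overlap, but the gap was narrow, with a log2 change of -0.21 (standard error 0.10, limma adjusted p = 0.676). *AT5G52660*, a MYB-related factor of the REVEILLE family, had 281, 324 and 348 against 280, 289 and 335 (log2 change 0.07, standard error 0.16, limma adjusted p = 0.973).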

How the data were processed

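ATH-1 arrays were hybridized with RNA of 35 biological samples from 13 lines. The authors deposited intensity values that are MAS5 signals on a linear scale, scaled per array, with no detection filter (no MAS5 version is given). The Methods name PLIER, but the trimmed mean of the 6 arrays compared was 499.8 in each, as MAS5 scaling leaves it. With 3 samples per line, few samples and the background of dim probe sets limit the precision.

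Signals were turned into log2(signal + 16) and averaged over technical replicates in R 4.3.3, and the model was fitted in limma 3.58.1. The 64 control probe sets and 1 outlying array of RNAi-A3 (correlation 0.499 with the median profile) were left out. To be tested, a probe set needed a line whose mean exceeded a signal of 91.2, the 35th percentile. The model had 1 mean per line and no covariate (residual degrees of freedom 22, prior 3.27). Samples were grouped by their titles. P-values assume separate pools of plants. They rest on the spread between samples of the same line, pooled over all lines of the series and not only those compared.

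Genes were named for probe sets with 1 gene in the probe table (13513 of 22746; 503 had several and 8730 none), with symbols from the gene table where matched (13436). Named were all called probe sets, 15 named genes and 2 unnamed probe sets per direction with the greatest log2 change among those with an unadjusted p under 0.05 and no overlap between the lines, the neighbours of *HSP90.1*, the 3 greatest changes of each list, and up to 5 calls per direction against each other insertion line. The probe set with the highest mean stood for a gene. The comparison, the 19 lists (288 entries, 66 with a named probe set) and the tests were chosen with the paper and earlier results of these data known.

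Alternatives were other samples for the spread, normalizations, offsets (4 and 64), filters, the replicate number as a block, the methods' t-test and each sample left out. The model was also run on simulated data with known changes. The outcome is not given here and lends the calls no weight. The deviations of same-numbered samples of the lines correlated weakly (0.03, 0.06 and 0.13), and those of unlike-numbered samples at -0.114 to 0.0435. The numbers were not used for pairing, apart from the alternative with the replicate number as a block.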

Additional observations from a re-analysis of the deposited data

Results flagged for a closer look

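HSP90.1-TDNA differed from HSP90.2-TDNA or HSP90.3-TDNA, by a direct limma test of the difference between the lines, at the following probe sets. From HSP90.2-TDNA, HSP90.1-TDNA differed on the log2 scale by 7.12 at the unnamed 248045_at, by 2.76 at *AT2G23950*, by -2.64 at the unnamed 248332_at and by -1.21 at *AT3G57940*. From HSP90.3-TDNA it differed by 3.01 at *AT2G23950*, by 2.40 at 248043_s_at, by 1.95 at *BHLH101*, by 1.88 at *AT1G47400* and by 1.06 at 254564_at, and by -1.90 at 248332_at, -1.20 at *SAL2*, -1.19 at *AT3G57940* and -0.88 at 264901_at. The other 4 calls against HSP90.3-TDNA were smaller differences, at 248270_at (1.025), 264146_at (0.8235), 251157_at (0.4979) and *YLMG1-2* (0.4935). At 248045_at and 248043_s_at HSP90.1-TDNA was near Col-0 (log2 changes of -0.09 and -0.07), and the differences came from low signals in HSP90.2-TDNA and HSP90.3-TDNA. Which transcripts these and 248332_at measure was not settled here. With 3 samples per line, single samples were not tested for lying apart from their group.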

How the results depend on the processing

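Calls rested on a spread estimated over all lines. The number of probe sets called against Col-0 was 4, and it was 2 with the 12 samples of the third experiment, 1 with the samples of the 2 lines alone, 0 with the outlying array kept (825 at an unadjusted p under 0.05), 1 with the offset of 64, 1 with no filter and 0 by the methods' t-test after adjustment (515 unadjusted). Leaving out 1 sample gave 1 to 11. The replicate block gave 5, 4 of them the calls above, with *AT5G52220* added. By the rule of the Methods the count of 320 became 213 with the offset of 64, 528 with no filter (54.5% higher), 54 by the methods' t-test (53.7% higher) and 194 to 525 with 1 sample left out, and 341 with the replicate block. The count against HSP90.2-TDNA was 4, and it was 2 with the samples of the 2 lines, 0 by the methods' t-test, 3 to 26 with 1 sample left out and 5 with the replicate block. The count against HSP90.3-TDNA was 13, and it was 6 with the 12 samples of the third experiment, 2 with the samples of the 2 lines, 6 with the outlying array kept, 8 with no filter, 0 by the methods' t-test, 5 to 50 with 1 sample left out and 14 with the replicate block. Other alternatives stayed within 1.5 times these counts, and the cause of the differences was not tested. By their deviations from the line means, every sample but HSP90.1-TDNA replicate 1 (0.0435 with Col-0 replicate 2, 0.0322 with Col-0 replicate 1) correlated best with the sample of its own number, a hint from the data and not from the design.

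Of the 1300 values of named genes under alternatives, 1236 kept direction and side of the threshold, 37 lost a call, 3 gained one and 24 changed sign, none of them a called change. Only the 4 called probe sets had a call to lose, so all 37 losses were theirs. *AT2G23950* kept its call in 12 of 17 alternatives, *AT3G57940* in 7 of 17, 248332_at in 6 of 17 and *AT5G60150* in 5 of 16. *RCA* was 0.0103 under quantile normalization. With 1 sample left out, log2 changes ran from -0.0303 to 1.13 for *AT1G71000*, -0.70 to 0.35 for *Hop3*, -0.99 to 0.00967 for *LEA4-5*, -0.05 to 0.11 for *AIM1*, -0.80 to 0.74 for *PDF1.2*, -0.0469 to 0.27 for *GI*, -0.00106 to 0.23 for *PYE*, -0.17 to 0.74 for *AT4G14090*, -0.36 to 0.0566 for *DFR*, -0.0842 to 0.0459 for *DER1*, -0.14 to 0.0169 for *RCA*, -0.66 to 0.073 for *EXPA7*, -0.21 to 0.15 for *EXPA18*, -0.21 to 0.0794 for 248045_at, -0.23 to 0.12 for 248043_s_at, -0.15 to 0.21 for *AT1G47400* and -0.16 to 0.33 for 254564_at.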
